A study of Mus musculus with 40 samples.

Results

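Collagen genes were followed through the H3K27ac peak lists of differentiating fat cells. The members were the protein-coding genes whose symbol is Col, a number, the letter a and a number, which gave 44 genes among 21938 protein-coding genes of the GENCODE M21 annotation of mm10. Each gene was measured over its span, from 5 kb upstream of its start to its end. The measures were the kilobases of the span lying under peaks (kb under peaks) and the rank of the strongest peak within its library's list. Of the 44 genes, 39 held a peak in at least 1 of the 24 libraries and 37 held one in at least 3 and were tested, as were 15204 genes in all. The 7 genes that were not tested were Col2a1, Col9a1, Col10a1, Col22a1 and Col26a1, which had no peak in any library, Col13a1 with a peak in 1 library and Col20a1 with peaks in 2.

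The libraries are ChIP-seq of histone H3 acetylated at lysine 27 (H3K27ac), a mark of active promoters and enhancers. Preadipocytes were taken from inguinal white fat of C57BL/6 mice, aged 8 to 12 weeks. They came from wild-type mice (WT) and from double knockout mice (DKO), which are Hmgn1-/- and Hmgn2-/- and so lack the nucleosome-binding proteins HMGN1 and HMGN2 in every cell. Both genotypes were grown on collagen-coated plates, brought to confluence and induced with insulin, dexamethasone, IBMX, T3 and rosiglitazone for 4 days, then kept in insulin and T3. Chromatin was taken on day 0 (preadipocytes) and on days 3, 6 and 9, the last called brown-like adipocytes, with 3 libraries in each of the 8 groups of genotype and day. The labels number these as replicates without saying whether they came from separate cultures or animals, so p-values measure the spread between libraries.

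Collagens are secreted matrix proteins built as triple helices of 3 alpha chains, each chain encoded by its own gene. Fibrillar collagens (types I, III, V and XI among them) form the fibrils of connective tissue and are made in quantity by fibroblasts and preadipocytes. Collagen IV forms the sheet of basement membranes, which surrounds each mature adipocyte, and collagens XV and XVIII are found at basement membrane zones. Collagen VI forms beaded filaments and is abundant in adipose tissue. FACIT collagens, such as XII, XIV and XVI, associate with fibrils, and transmembrane collagens such as XVII, XXIII and XXV are anchored in the cell membrane.

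The lists held between 47448 peaks (DKO day 6 replicate 3) and 115923 peaks (DKO day 9 replicate 1). Peaks covered 20.7 Mb in the former, 96.4 Mb in DKO day 0 replicate 2, whose median peak was 1076 bp wide, and 29.9 to 68.8 Mb in the others. WT day 3 replicate 3 covered 31.1 Mb against 49.8 and 52.9 Mb in the other WT libraries of that day. Read totals are not in the lists, so depth is unknown, and kb under peaks rises with the length a list covers. Hmgn2 had no peak in any of the 12 DKO libraries and 0.781 to 1.80 kb under peaks in the 12 WT libraries. Hmgn1 kept peaks in its span in all 24 libraries and so does not check the genotype. Summed over 8 adipocyte marker genes, kb under peaks ran from 13.2 to 15.95 in WT at day 0 and from 65.5 to 76.0 at day 9. Peaks were present at 5 of 6 endothelial and 5 of 6 immune markers, which summed to 6.65 to 7.27 kb and 21.7 to 24.3 kb in WT at day 0. At skeletal muscle and epithelial markers 2 of 5 each held any peak, with sums of at most 0.640 and 2.01 kb in any library. The markers with no peak in any library were Tie1, Cd3e, Myod1, Myog, Pax7, Epcam, Krt14 and Krt18.

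At day 6, kb under peaks in collagen genes was lower in DKO than in WT at 25 of the 37 genes tested, against 39.6% of all genes, and higher at none. At day 0, 1 gene was lower and 1 higher, against 0.257% and 2.58% of all genes, and at days 3 and 9 no gene passed the test. After dividing by the length each list covers, 17 collagen genes were lower at day 6 and 1 higher, against 14.4% and 33.4% of all genes. With this scaling 5 genes were lower at day 0, 6 at day 3 and 5 at day 9, against 1.78%, 3.16% and 0.631% of all genes. Leaving out DKO day 6 replicate 3, without scaling, kept 14 of the 25 calls of day 6, against 16.6% of all genes. Without scaling, the fall at day 6 reached 9 of 10 fibrillar collagens, Col1a1, Col1a2, Col3a1 and Col5a2 among them. The median log2 difference was -1.53 over the 10 fibrillar genes and -0.87 over the 6 of collagen IV. With scaling, 8 of the 10 fibrillar genes stayed lower, while Col4a1 and Col4a2 turned to 0.068 and 0.065. Between day 0 and day 9 in WT, 8 collagen genes rose and 4 fell, against 13.7% and 8.79% of all genes. The basement membrane genes Col4a1 and Col4a2, which share part of their spans, were among those that rose, as was the fibrillar gene Col5a3. Col1a2, Col8a1 and Col14a1 were among those that fell, while Col1a1 and Col3a1 passed in neither direction. The strongest Col1a1 peak stood lower in the list of peaks in DKO than in WT over the 4 days, a call made for 0.859% of all genes with a peak in every library. Its ranks overlapped between genotypes at day 6. The call was lost when the libraries of any 1 replicate number were left out.

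In WT, collagen genes differed widely in how much of their span was acetylated. At day 0, 89.6% of the span of Col1a1 (chr11:94936224-94953042) lay under peaks, the highest share among members, followed by 58.9% for Col1a2 (chr6:4504814-4541544) and 52.9% for Col3a1 (chr1:45311538-45349706). These genes encode the chains of collagens I and III, the main fibril collagens of soft tissue. Col6a1 (chr10:76708792-76726168) had 19.02% of its span under peaks at day 0, Col5a1 (chr2:27886425-28039514) 17.2% and Col5a2 (chr1:45374321-45503282) 14.7%. At day 6 the order had shifted. Col3a1 then stood highest in WT with 65.5% of its span under peaks, Col1a1 had 60.5% and Col4a1 (chr8:11198423-11312826) 58.9%. Col4a2 (chr8:11312805-11449287) had 33.7%, Col15a1 (chr4:47208161-47313167) 26.9% and Col6a1 26.8%. Col4a1 and Col4a2 start head to head, share 10.02 kb of their spans and the peak at their start, and are not independent of each other. Col4a3 with Col4a4 and Col4a5 with Col4a6 are arranged in the same way, sharing 9.93 and 8.69 kb.

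Between 34 and 35 of the 44 genes held a peak in the WT libraries of day 0, 28 to 33 at day 3, 30 to 32 at day 6 and 33 to 34 at day 9. In DKO the counts were 32 to 34, 24 to 32, 20 to 25 and 32 to 34 for the same days. The 3 DKO libraries of day 6 were thus the lowest group, and their values did not overlap with those of WT on that day. Among all protein-coding genes, 63.1 to 64.0% held a peak in WT at day 6 and 54.0 to 59.5% in DKO.

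Summed over the 44 genes, kb under peaks was 343 to 374 in WT at day 6 and 103 to 188 in DKO. At the other days the ranges overlapped, between 234 and 285 kb for WT against 195 and 431 kb for DKO at day 0, and between 281 and 353 kb against 328 and 376 kb at day 9. At day 3 the sums were between 174 and 325 kb against 152 and 223 kb. Divided by the Mb covered by the whole list, the sum was 6.18 to 6.24 kb per Mb in WT and 4.98 to 5.17 kb per Mb in DKO at day 6. This ratio was lower in all 3 DKO libraries than in all 3 WT libraries on each of the 4 days, with 5.07 to 5.22 against 4.09 to 4.47 at day 0, 5.61 to 6.19 against 5.08 to 5.32 at day 3 and 5.84 to 5.97 against 5.35 to 5.47 at day 9. In bulk chromatin, fewer cells with the mark and less of the mark in each cell cannot be told apart.

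**Figure D1:**
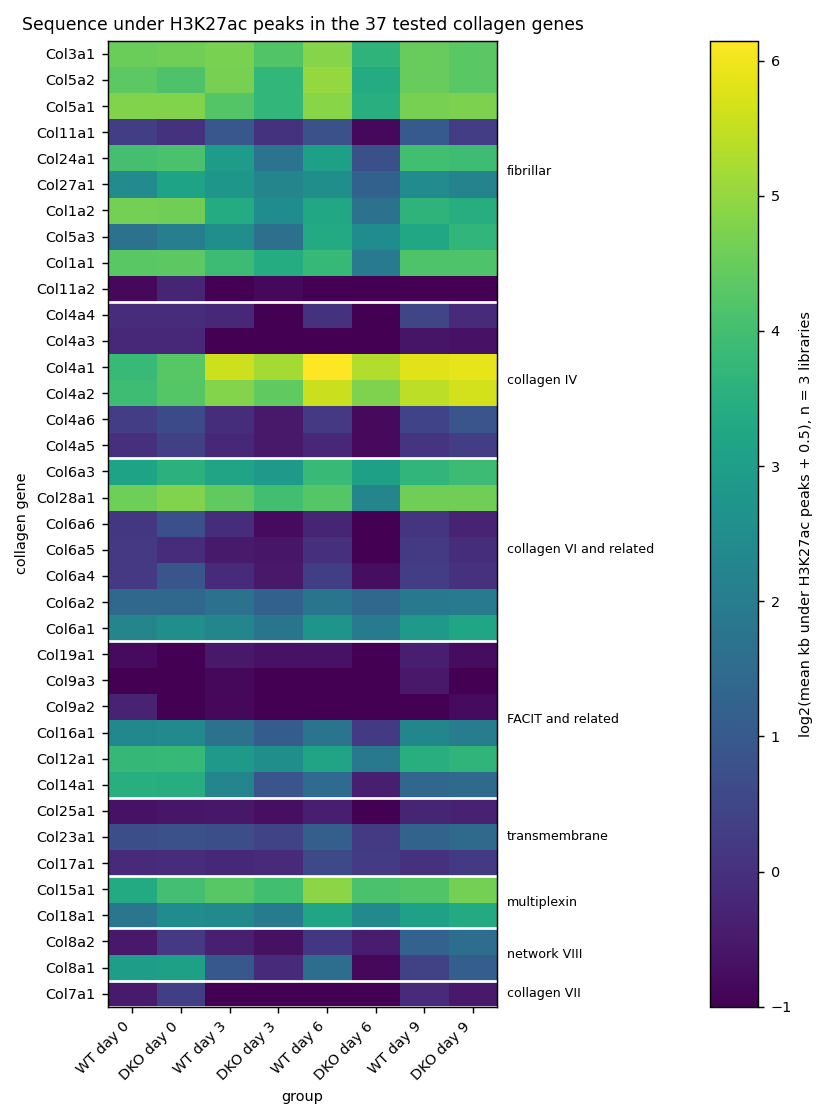
Mean kb under H3K27ac peaks in the 37 tested collagen genes, as log2(kb + 0.5) by colour, for the 8 groups of 3 libraries (columns) and ordered by class (rows). The DKO day 6 column is darker than the WT day 6 column in most rows, Col4a1 and Col4a2 brighten from day 0 to day 6 in WT, and Col8a1 and Col14a1 darken.

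Over the 4 days as a whole, no collagen gene passed the test of kb under peaks between the genotypes. The test was an exact permutation of genotype within days (160000 relabellings, two-sided, Benjamini-Hochberg over 15204 genes), and it called 0.125% of all genes lower in DKO and 0.0263% higher. At an unadjusted p under 0.05, 8 of the 37 collagen genes were lower in DKO and none higher, against 5.91% and 3.95% of all genes. Fitting the mean over days with limma instead called 12 collagen genes lower and none higher, against 5.20% and 1.13% of all genes. The smallest p among members belonged to Col11a1 (chr3:114030540-114220718), which encodes a chain of the minor fibril collagen XI, with a mean difference of -0.768 kb and adjusted p = 0.0686. Without DKO day 0 replicate 2, the list of wide peaks, 5 members passed (Col1a2, Col4a4, Col5a2, Col11a1 and Col16a1), all lower in DKO, against 1.30% of all genes. Without WT day 3 replicate 3 only Col11a1 passed, against 0.230%.

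At day 6, 9 of the 10 fibrillar genes tested fell in DKO, against 39.6% of all genes. They made up the largest group of calls and came from the class with the most genes tested. Col1a1 had 12.4, 12.8 and 14.4 kb under peaks in the 3 WT libraries and 4.28, 3.78 and 1.73 kb in the 3 DKO libraries. The highest DKO library was far under the lowest WT library. All 3 DKO values of day 6 lay under all 3 WT values at 59.6% of all genes, a share that applies to the genes below as well. In limma on log2(kb + 0.5), with Benjamini-Hochberg adjustment over the 15204 genes as in the comparisons that follow, Col1a1 had a log2 difference of -1.94 ± 0.24 (SE), adjusted p = 1.69e-05.

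Its partner chain gene Col1a2 had 8.55, 10.04 and 9.14 kb under peaks in WT and 2.85, 3.40 and 1.90 kb in DKO at day 6. The groups were again apart, with a log2 difference of -1.62 ± 0.27 (SE), adjusted p = 0.000202. For Col3a1, which encodes the chain of collagen III, the WT libraries had 29.9, 27.3 and 27.6 kb and the DKO libraries 14.5, 13.2 and 8.22 kb. All 3 DKO values were below the lowest WT value, with DKO day 6 replicate 3 the lowest of the 6 libraries (log2 difference of -1.25 ± 0.25 (SE), adjusted p = 0.000844).

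The collagen V genes, whose chains set the start and width of collagen I fibrils, showed the same order of groups. Col5a1 had 29.2, 29.02 and 28.2 kb in WT and 11.8, 12.96 and 7.10 kb in DKO, a log2 difference of -1.44 ± 0.29 (adjusted p = 0.00106). Col5a2 had 32.4, 29.99 and 32.96 kb in WT and 12.8, 11.8 and 5.51 kb in DKO, a log2 difference of -1.70 ± 0.36 (adjusted p = 0.00139). Col5a3 (chr9:20770050-20815067) changed less, from 9.90 ± 1.22 kb to 5.07 ± 1.64 kb (SD, n = 3), with a log2 difference of -0.94 ± 0.30 (adjusted p = 0.0198).

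Among the minor fibrillar genes, Col24a1 (chr3:145292472-145552011), chosen after its values were seen, had the lowest log2 difference of the members tested on the log2(kb + 0.5) scale, close to that of Col8a1 (-2.42 and -2.41). In mean kb, Col8a1 (-97.7%) and Col11a1 (-95.5%) changed by more than Col24a1 (-85.0%). The WT libraries had 8.28, 7.94 and 7.39 kb under peaks at Col24a1 at day 6 and the DKO libraries 1.77, 1.38 and 0.402 kb, with a log2 difference of -2.42 ± 0.37 (SE), adjusted p = 0.000110. With only the 20000 strongest peaks of each list its difference turned to 0.24 and was not called, and that of Col6a1 turned to 0.36. Col11a1 was at 1.27, 0.838 and 1.52 kb in WT and 0.162, 0 and 0 kb in DKO. Only DKO replicate 1 kept a peak there, and the log2 difference was -1.62 ± 0.27 (adjusted p = 0.000260). Col27a1, chosen after its values were seen, fell by 1.38 on the log2 scale (SE 0.27, adjusted p = 0.000747). Col11a2 had no peak in any of the 6 libraries.

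**Figure D2:**
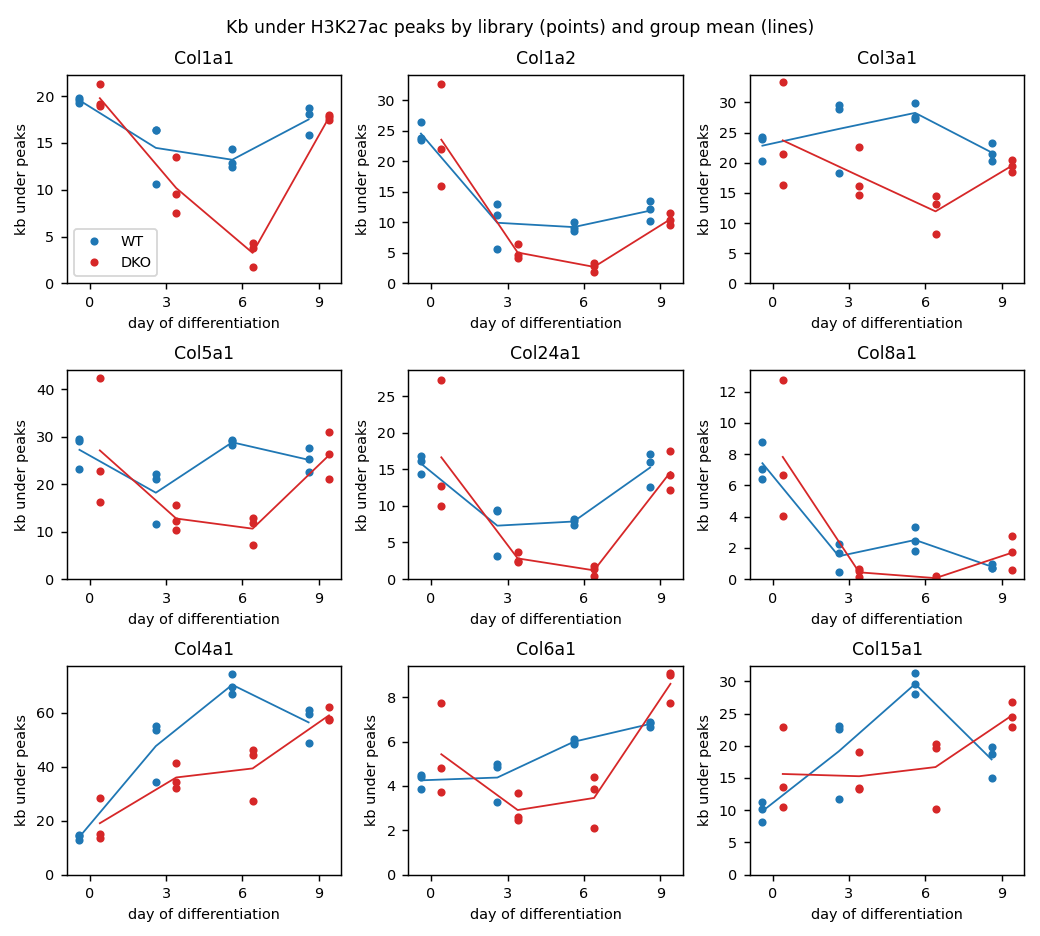
Kb under H3K27ac peaks (vertical axis) against the day of differentiation for 9 collagen genes, with 1 point per library and lines through the means of 3, WT in blue and DKO in red. At day 6 all 3 DKO points lie under all 3 WT points in each of the 9 panels, as at 59.6% of all genes. At day 9 the genotypes overlap except at Col6a1 and Col15a1, where DKO is higher.

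Collagen IV genes fell by less. Col4a1, which encodes the most widespread chain of basement membranes together with Col4a2, had 69.7, 67.03 and 74.4 kb under peaks in WT at day 6 and 44.3, 46.3 and 27.4 kb in DKO, with a log2 difference of -0.87 ± 0.25 (SE), adjusted p = 0.0103. Col4a2 had 44.9, 44.6 and 53.3 kb in WT and 30.5, 31.2 and 18.02 kb in DKO, with a log2 difference of -0.87 ± 0.23 (adjusted p = 0.00638). Neither gene's groups overlapped, as at 59.6% of all genes, and in both DKO replicate 3 was far under the other DKO libraries. Col4a4, a chain gene of the kidney and lung type of collagen IV, held no peak in any DKO library of day 6 and had 0.906, 0.175 and 0.507 kb in WT, for a log2 difference of -0.98 ± 0.38 (adjusted p = 0.0479) whose size depends on the 0.5 kb added. In all, 4 of 6 collagen IV genes passed the test, all lower, against 39.6% of all genes. Scaling by covered length turned Col4a1 and Col4a2 to 0.068 and 0.065.

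Collagen VI genes were among the least changed of the strongly marked members. Col6a1 had 5.89, 5.97 and 6.13 kb under peaks in WT and 3.87, 4.42 and 2.09 kb in DKO at day 6 (log2 difference -0.77 ± 0.23, adjusted p = 0.0139). Col6a3 (chr1:90765923-90843971) had 13.3, 13.9 and 13.8 kb in WT and 8.67, 8.95 and 6.01 kb in DKO (log2 difference -0.78 ± 0.23, adjusted p = 0.0136). Col6a2 (chr10:76595762-76623630) had 3.33, 2.88 and 2.64 kb in WT and 2.04, 2.27 and 2.15 kb in DKO. Its groups did not overlap either, but its log2 difference of -0.38 ± 0.15 did not pass the test (adjusted p = 0.0537). Col6a5 had 0.412 to 0.520 kb in WT and no peak in the 3 DKO libraries. Col28a1 (chr6:7997808-8192617), a related chain with von Willebrand A domains that was chosen after its values were seen, behaved unlike them in size. It had 19.3, 16.7 and 19.98 kb in WT against 4.61, 6.14 and 2.05 kb in DKO, a log2 difference of -2.11 ± 0.31 (adjusted p = 7.87e-05). Of 7 tested genes in this class, 5 were lower in DKO and none higher, against 39.6% of all genes lower. Scaling by covered length turned Col6a1 to 0.074 and Col6a3 to 0.12.

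The multiplexins Col15a1 and Col18a1 (chr10:77052178-77166548), the latter the precursor of endostatin, both fell in kb under peaks, and both stood above 0 after scaling by covered length (0.052 and 0.0090, neither called). Col15a1 had 27.96, 29.6 and 31.3 kb in WT and 19.6, 20.2 and 10.2 kb in DKO, with a log2 difference of -0.87 ± 0.29 (adjusted p = 0.0224). Col18a1 had 9.67, 8.09 and 8.88 kb in WT and 5.68, 5.53 and 3.17 kb in DKO, with a log2 difference of -0.86 ± 0.32 (adjusted p = 0.0357). In both genes the highest DKO value lay under the lowest WT value, as it did at 59.6% of all genes.

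Of the 6 FACIT genes tested, 3 fell at day 6, against 39.6% of all genes. Col16a1 (chr4:130047840-130099283) had 2.53, 2.86 and 3.28 kb under peaks in WT and 0.802, 0.769 and 0.388 kb in DKO, with a log2 difference of -1.57 ± 0.19 (adjusted p = 1.94e-05). Col14a1 (chr15:55307750-55520803), a fibril-associated collagen, had 1.92, 2.61 and 2.50 kb in WT and 0.481, 0.293 and 0 kb in DKO, with a log2 difference of -1.95 ± 0.45 (adjusted p = 0.00249). Col12a1, chosen after its values were seen, had a log2 difference of -1.39 ± 0.33 (adjusted p = 0.00332). Col8a1 (chr16:57624258-57754737), a network-forming collagen of vessel walls and stroma, had 2.42, 1.78 and 3.31 kb in WT and 0.172, 0 and 0 kb in DKO, so that a peak was left in 1 DKO library (log2 difference -2.41 ± 0.40, adjusted p = 0.000210). Its relative Col8a2 had a log2 difference of -0.65 ± 0.32 and did not pass (adjusted p = 0.106). Of 3 transmembrane collagens tested, Col23a1, chosen after its values were seen, fell, with a log2 difference of -1.03 ± 0.30 (adjusted p = 0.0108).

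The count of 25 lower collagen genes at day 6, 67.6% of the 37, is to be read against the 39.6% of all 15204 genes that were lower at that day and the 0.0855% that were higher. The median log2 difference was -0.94 over the collagen genes and -0.42 over all genes. All 3 DKO values lay under all 3 WT values for 27 of the 37 collagen genes and for 59.6% of all genes. Leaving out DKO day 6 replicate 3, the list with the fewest peaks, kept 14 of the 25 calls, against 16.6% of all genes, with medians of -0.69 and -0.30. Using only the 20000 strongest peaks of each list called 3 collagen genes lower of 21 tested, against 4.58% of all genes, with medians of -0.61 and -0.26. Leaving out the libraries numbered 3 in every group called 7 of 36 lower and none higher, against 5.87% and 0.0803% of all genes. Col1a1 and Col28a1 were called lower under all 15 alternatives.

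Dividing each library's kb by the length its list covered gave a different split by class. All genes then had a median log2 difference of 0.16, with 14.4% lower and 33.4% higher in DKO, while the collagen genes had a median of -0.50 with 17 lower and 1 higher, all 17 of them among the 25. Under this scaling 8 of 10 fibrillar genes stayed lower. Col1a1 had a log2 difference of -1.10 ± 0.14 (adjusted p = 3.22e-06), Col24a1 of -1.75 ± 0.20 (adjusted p = 1.04e-06) and Col3a1 of -0.33 ± 0.078 (adjusted p = 0.00163). In other classes several genes had values above 0. Col4a1 had 0.068 ± 0.057 (adjusted p = 0.339), Col15a1 0.052 ± 0.081 (adjusted p = 0.629) and Col6a1 0.074 ± 0.099 (adjusted p = 0.571), and Col6a2 was higher in DKO with 0.43 ± 0.17 (adjusted p = 0.0450). The direction of the day 6 difference therefore flipped with the scaling for Col4a1, Col4a2, Col6a1, Col6a2, Col6a3, Col15a1, Col17a1 and Col18a1, and did not for the 17 genes called lower. Over the 4 days, the scaled values called 12 collagen genes lower and 1 higher (Col15a1), against 5.69% and 9.19% of all genes.

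Of 8 preadipocyte and stromal markers, 6 were also lower in DKO at day 6, against 39.6% of all genes. The summed kb under peaks of the 8 was 40.8 to 42.6 in WT and 13.9 to 20.9 in DKO. Of 8 adipocyte markers 1 was lower, with sums between 91.7 and 96.9 kb for WT against 59.4 and 86.8 kb for DKO. Immune markers summed to 9.49 to 10.01 kb and 5.19 to 11.4 kb, and none of the 5 tested was lower. After scaling by covered length 4 stromal markers were lower and 2 higher, all 8 adipocyte markers were higher, with a median log2 difference of 0.83, and 3 of 5 immune markers were higher. Of all genes, 14.4% were then lower and 33.4% higher. The part of these marker changes in the collagen result was not tested.

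**Figure D3:**
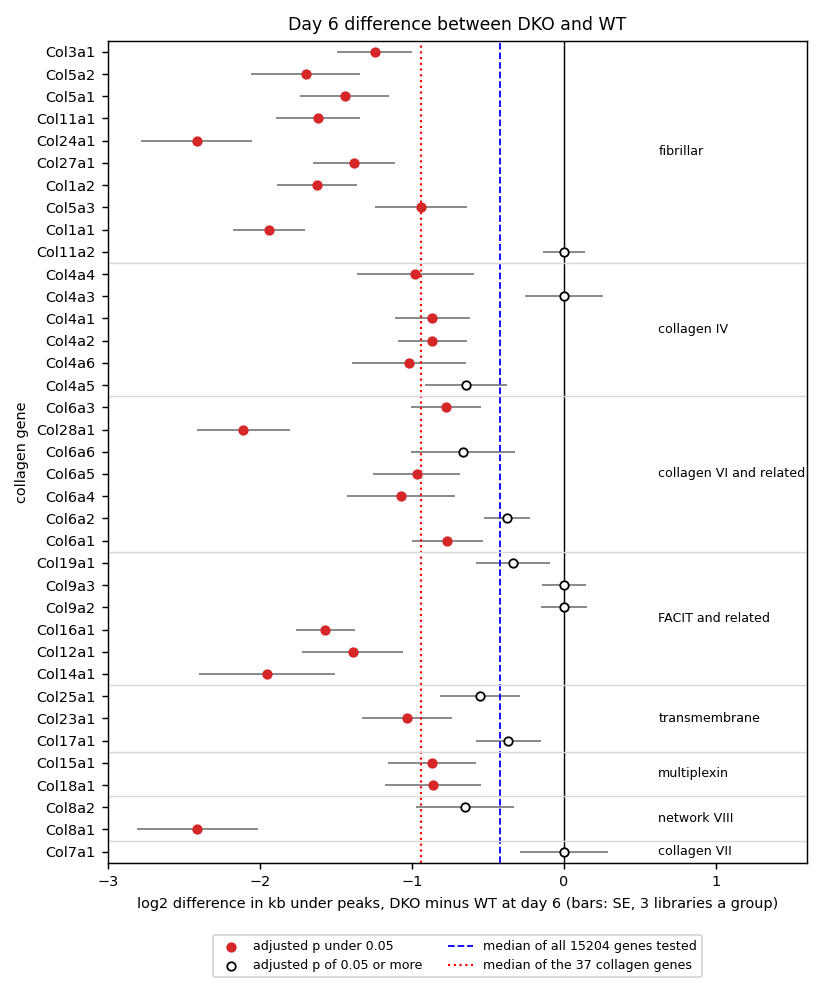
Log2 difference in kb under peaks between DKO and WT at day 6 for the 37 tested collagen genes by class, with standard errors from limma (3 libraries a group). Filled points passed the test at an adjusted p under 0.05. The dotted line is the median of the collagen genes (-0.94) and the dashed line that of all genes tested (-0.42).

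Among genes with a start peak in all 3 WT libraries of day 6, the median percent fall was larger outside the start window than in it. This held for the medians of collagen genes and of all genes, not for every gene. At Col1a2, Col6a2, Col23a1, Col24a1 and Col28a1 the percent fall was larger in the start window. The window can hold at most 2.001 kb, so a peak that reaches beyond it can narrow without a change in this value. Within 1 kb of the GENCODE start, all 3 WT libraries held a peak at 19 of the collagen genes, and at 14 of these all 3 DKO libraries still did. Among all genes with a start peak in the 3 WT libraries, 88.1% kept it in the 3 DKO libraries. At these 19 genes the median change in kb under peaks was -36.7% in the start window and, over the 18 genes with peaks elsewhere in the span in WT, -62.4% outside it. All genes had medians of -20.7% and -49.3%.

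At Col3a1 the start window, which can hold at most 2.001 kb, held 2.001 ± 0 kb in WT and 1.99 ± 0.00850 kb in DKO, while the rest of the span went from 26.3 ± 1.41 kb to 9.96 ± 3.29 kb (SD, n = 3). At Col5a1 the start window went from 1.80 ± 0.0108 kb to 1.59 ± 0.00850 kb, and the rest of the span from 27.01 ± 0.532 kb to 9.02 ± 3.09 kb. At Col1a2 the sequence under peaks in the start window fell by more, from 1.45 ± 0.140 kb to 0.345 ± 0.0361 kb. Peaks at the start were thus kept in every DKO library of day 6 at all 3 genes, at near full width for Col3a1 and at less width for Col5a1 and Col1a2. The start peak was present in every WT library of day 6 and in no DKO library at Col24a1 and Col28a1, where it was small in WT (0.214 ± 0.194 kb and 0.194 ± 0.0104 kb). At day 9 it was back in 3 of 3 DKO libraries at both genes.

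The 250 bases upstream of the start are shown for 2 genes that kept the start peak and for the 2 that had it in no DKO library, taken from RefSeq promoters of GRCm38.p6, on the strand of the gene. RefSeq and GENCODE place the start of these 4 genes at the same base, and 35 of the 44 collagen genes have an entry in the promoter table. Capitals mark matches on either strand to the TATA box TATAAA, the CCAAT box, the GC box GGGCGG that SP1 binds, the AP-1 site TGACTCA and the TEAD site CATTCC.
Col3a1 at chr1:45311288-45311537, plus strand: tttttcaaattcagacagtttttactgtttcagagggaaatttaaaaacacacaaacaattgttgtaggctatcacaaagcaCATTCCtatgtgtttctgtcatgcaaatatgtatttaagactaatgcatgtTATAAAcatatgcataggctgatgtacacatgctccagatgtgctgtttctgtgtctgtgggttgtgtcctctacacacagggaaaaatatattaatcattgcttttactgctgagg
Col5a1 at chr2:27886175-27886424, plus strand: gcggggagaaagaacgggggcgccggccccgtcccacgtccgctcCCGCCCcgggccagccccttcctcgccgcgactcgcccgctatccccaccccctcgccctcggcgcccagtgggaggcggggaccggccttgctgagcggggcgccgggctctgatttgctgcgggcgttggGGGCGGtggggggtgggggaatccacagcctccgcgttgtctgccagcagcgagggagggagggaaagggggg
Col24a1 at chr3:145292222-145292471, plus strand: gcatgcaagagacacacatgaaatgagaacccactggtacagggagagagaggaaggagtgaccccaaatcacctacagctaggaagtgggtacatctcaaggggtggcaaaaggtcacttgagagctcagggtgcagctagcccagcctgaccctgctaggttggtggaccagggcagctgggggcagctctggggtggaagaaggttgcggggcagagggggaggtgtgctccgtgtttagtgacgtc
Col28a1 at chr6:8192618-8192867, minus strand: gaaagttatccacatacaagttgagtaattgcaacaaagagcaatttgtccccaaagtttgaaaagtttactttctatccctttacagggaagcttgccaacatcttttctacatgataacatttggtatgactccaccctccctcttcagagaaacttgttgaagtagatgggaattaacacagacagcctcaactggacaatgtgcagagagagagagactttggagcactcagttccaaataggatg
Col3a1 had 1 match to TATAAA and 1 to CATTCC in a stretch of 35.2% GC, and Col5a1 had 2 to GGGCGG in a stretch of 76.4% GC. Neither Col24a1 (58.0% GC) nor Col28a1 (40.4% GC) had any of the 5 motifs in this window. Among 32851 promoters of the same length, 12.4% held TATAAA, 33.8% CCAAT, 32.7% GGGCGG, 4.46% TGACTCA and 12.6% CATTCC. A match describes the letters and is not evidence of binding.

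**Figure D4:**
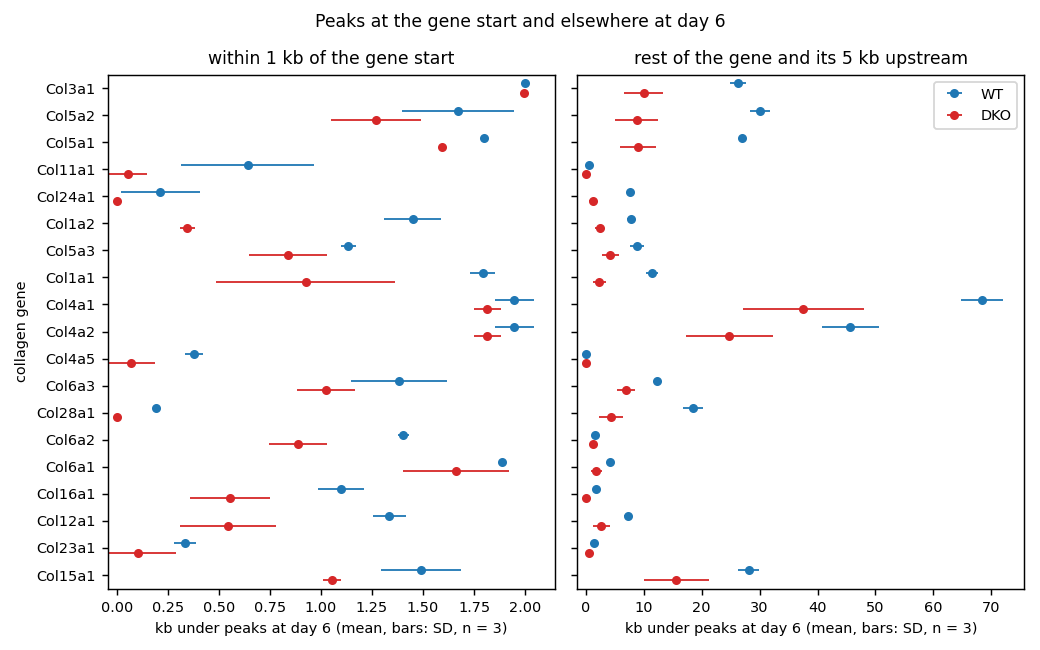
Kb under peaks at day 6 within 1 kb of the gene start (left) and in the rest of the gene with its 5 kb upstream (right), for the 19 collagen genes with a start peak in all 3 WT libraries. Points are means and bars SD over 3 libraries, WT in blue and DKO in red, and bars are cut at the left edge. The left panel shows near-equal values for Col3a1 and somewhat lower DKO means for Col4a1 and Col5a1. The right panel shows lower DKO values at the same genes.

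Peaks of all 24 lists that overlapped were joined into 169134 regions, 849 of them in collagen spans. At day 6, 51 of these 849 (6.01%) held a peak in every WT library and in no DKO library, against 4.55% of all regions, and none in the opposite way (0.0390% of all). Col5a2 held 12 of the 51, out of 92 regions in its span, Col4a1 6 of 61 and Col5a1 5 of 104. Among the 51, the regions of best median rank in WT whose summits lie outside annotated exons were 1 located 3.03 kb upstream of the Col4a1 start, within the Col4a2 gene, and 1 located 116 kb into Col5a2. Both are shown as the 201 bases around the summit, on the plus strand of GRCm38.p6, with the same motifs in capitals.
Col4a1 upstream region at chr8:11315753-11315953: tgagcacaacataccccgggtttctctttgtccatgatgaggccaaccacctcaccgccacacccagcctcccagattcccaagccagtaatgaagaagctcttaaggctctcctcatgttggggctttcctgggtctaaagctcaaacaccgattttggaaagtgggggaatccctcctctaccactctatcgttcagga
Col5a2 intronic region at chr1:45387109-45387309: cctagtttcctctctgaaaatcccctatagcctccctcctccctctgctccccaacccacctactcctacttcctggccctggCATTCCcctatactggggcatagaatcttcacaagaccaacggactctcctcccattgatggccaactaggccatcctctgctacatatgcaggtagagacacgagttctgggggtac
The Col4a1 region was called in none of the 6 libraries of day 0, in 2 WT and 3 DKO libraries of day 3 and in all 6 of day 9. The Col5a2 region was called in all 6 libraries of day 0, in 3 WT and 1 DKO libraries of day 3 and in 3 WT and 2 DKO libraries of day 9. Both are weak peaks, with median ranks of 40801 and 42846 in the WT lists of day 6. The second holds 1 match to CATTCC, which 11.3% of the 102234 summit windows of WT day 6 replicate 1 also hold, and the first holds none of the 5 motifs.

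At day 0, 1 collagen gene was lower in DKO (Col9a2, against 0.257% of all genes) and 1 higher (Col11a2, against 2.58%). Both are weakly marked. Col9a2, a cartilage FACIT chain, had 0.280, 0.493 and 0.160 kb under peaks in WT and no peak in DKO, and Col11a2 had 0, 0 and 0.183 kb in WT and 0.226, 0.467 and 0.331 kb in DKO. Without DKO day 0 replicate 2, the list of wide peaks, neither passed. The strongly marked fibrillar genes had overlapping values, as at Col1a1 with 19.3, 19.8 and 19.6 kb in WT and 19.1, 21.3 and 18.9 kb in DKO. Most of the Col1a1 span already lay under peaks in WT at this day, so its kb under peaks had little room to rise. The 3 DKO values were below the 3 WT values at 1 member (Col9a2, against 0.704% of all genes) and above them at 2 (Col6a4 and Col11a2, against 18.4% of all genes). After scaling by covered length 5 members were lower and none higher, Col1a2, Col3a1, Col5a1, Col5a2 and Col9a2, against 1.78% and 2.50% of all genes, and the members' median log2 difference turned from 0.048 to -0.17.

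At day 3 no collagen gene passed the test, against 0.263% of all genes lower and 0.0132% higher, and the median log2 difference was -0.38 over the collagen genes and -0.15 over all. WT day 3 replicate 3 lay low at most members, for example with 11.2, 13.1 and 5.63 kb in the 3 WT libraries for Col1a2 against 4.19, 6.39 and 4.63 kb in DKO. Without that library 6 collagen genes were lower in DKO (Col1a2, Col5a3, Col8a1, Col11a1, Col14a1 and Col24a1) and none higher, against 3.57% and 0.0263% of all genes. Scaling by covered length with that library kept also called 6 lower, Col1a2, Col5a2, Col5a3, Col11a1, Col14a1 and Col24a1, against 3.16% of all genes. Without scaling, the values did not overlap at 2 members, Col6a2 and Col16a1, both lower in DKO (10.8% of all genes, with 0.862% higher).

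At day 9 no collagen gene passed by limma, against 0.164% of all genes lower and 1.68% higher. The median log2 difference was 0.021 over the collagen genes and 0.15 over all. Col1a1 had 15.8, 18.04 and 18.7 kb in WT and 17.8, 18.00 and 17.4 kb in DKO, and the libraries were intermixed. Col15a1 was at 15.04, 18.8 and 19.8 kb in WT and 26.8, 24.4 and 22.9 kb in DKO, with every DKO value above every WT value, but the log2 difference of 0.46 ± 0.29 (SE), adjusted p = 0.563, did not pass. DKO values lay above WT values without overlap at 6 members, Col4a2, Col5a3, Col6a1, Col6a3, Col8a2 and Col15a1 (29.3% of all genes), and below them at 2, Col4a4 and Col11a1 (2.08% of all genes). After scaling by covered length 5 members were lower and none higher, Col1a2, Col3a1, Col11a1, Col16a1 and Col27a1, against 0.631% and 2.06% of all genes, and the members' median log2 difference turned to -0.15.

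The size of the genotype difference depended on the day at 19 of the 37 collagen genes by limma's F test of the 3 genotype by day terms, against 36.0% of all genes. Of these 19, 7 were fibrillar and 4 FACIT genes. Without DKO day 6 replicate 3 the count was 11, against 18.7% of all genes, and without the libraries numbered 3 in every group it was 0, against 0.334%.

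Within WT, 8 collagen genes had more sequence under peaks at day 9 than at day 0 and 4 had less, against 13.7% and 8.79% of all genes. Col4a1 had the largest log2 difference on the log2(kb + 0.5) scale, from 12.7, 14.4 and 14.7 kb to 48.7, 60.9 and 59.6 kb, with a log2 difference of 1.97 ± 0.25 (SE), adjusted p = 3.41e-06. The mean of Col8a2, from 0.206 to 1.88 kb, changed by a larger ratio. Col4a2 rose from 13.6, 15.6 and 14.8 kb to 36.6, 46.8 and 45.5 kb, with a log2 difference of 1.51 ± 0.23 (adjusted p = 3.26e-05). The days did not overlap in either gene. In DKO, Col4a1 rose by 1.68 ± 0.25 (adjusted p = 1.55e-05) on the log2 scale and Col4a2 by 1.40 ± 0.23 (adjusted p = 5.07e-05).

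Col5a3, another collagen V chain gene, rose from 2.62, 3.40 and 2.06 kb to 8.37, 9.97 and 9.63 kb in WT, with a log2 difference of 1.64 ± 0.30 (adjusted p = 0.000325), unlike Col5a1 (-0.11 ± 0.29, adjusted p = 0.851) and Col5a2 (0.13 ± 0.36, adjusted p = 0.853). Col8a2 rose from 0.171, 0.0350 and 0.413 kb to 1.58, 1.99 and 2.06 kb, with a log2 difference of 1.78 ± 0.32 (adjusted p = 0.000259). Its relative Col8a1 moved the other way, from 6.43, 8.80 and 7.03 kb to 0.716, 0.978 and 0.689 kb (-2.61 ± 0.40, adjusted p = 3.60e-05). Col18a1 had a log2 difference of 1.28 ± 0.32 (adjusted p = 0.00439) and Col15a1 of 0.83 ± 0.29 (adjusted p = 0.0407). Col6a2 rose by less, with 0.46 ± 0.15 (adjusted p = 0.0309), a call that scaling by covered length removed (adjusted p = 0.131), and Col6a1 and Col6a3 had values of 0.62 ± 0.23 (adjusted p = 0.0576) and 0.55 ± 0.23 (adjusted p = 0.0969), which did not pass.

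Among the genes that fell in WT, Col14a1 went from 10.4, 11.9 and 10.4 kb at day 0 to 1.26, 2.94 and 1.93 kb at day 9, with a log2 difference of -2.21 ± 0.45 (SE), adjusted p = 0.000744. Col1a2 went from 23.5, 26.4 and 23.8 kb to 10.2, 12.2 and 13.5 kb, with a log2 difference of -1.02 ± 0.27 (adjusted p = 0.00705). The days did not overlap at either gene. Col1a1, whose product pairs with that of Col1a2 in collagen I, had a log2 difference of -0.16 ± 0.24 (adjusted p = 0.709), and Col3a1 one of -0.069 ± 0.25 (adjusted p = 0.897). Col9a2 went from 0.280, 0.493 and 0.160 kb to no peak, and Col4a3, also among the 5 lowest by size of change, had -0.47 ± 0.25 (adjusted p = 0.205).

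In DKO 7 collagen genes rose and 7 fell over the same interval, against 15.4% and 14.0% of all genes. Col8a1, Col14a1 and Col1a2 were among those that fell, with log2 differences of -1.93 ± 0.40 (adjusted p = 0.000618), -1.77 ± 0.45 (adjusted p = 0.00384) and -1.07 ± 0.27 (adjusted p = 0.00356). Col8a2 and Col5a3 rose, with 1.53 ± 0.32 (adjusted p = 0.000801) and 1.80 ± 0.30 (adjusted p = 7.68e-05). Over these days 7 of 8 adipocyte markers rose in each genotype and 4 of 5 immune markers fell. In WT, 13.7% of all genes rose and 8.79% fell. The immune markers went from summed values of 21.7 to 24.3 kb in WT at day 0 to 6.34 to 8.47 kb at day 9. Of 5 endothelial markers tested, 2 fell. The part of these cell types in the collagen changes was not tested. Without the libraries numbered 1 in every group 7 collagen genes passed in WT instead of 12 (5 higher and 2 lower, against 8.34% and 5.30% of all genes). Without those numbered 3, 8 passed in DKO instead of 14 (4 in each direction, against 10.5% higher and 10.1% lower).

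The rank of the strongest peak does not grow with the number of weak peaks. It was tested at the 20 collagen genes with a peak in all 24 libraries, among 11172 such genes, by exact permutation of genotype within days on the log2 rank. Col1a1 and Col6a2 had weaker ranks in DKO over the 4 days, against 0.859% of all genes weaker and 1.10% stronger, and no collagen gene had stronger ones. The best Col1a1 peak ranked 521, 540 and 1278 in the WT lists of day 0 and 4270, 3529 and 2896 in the DKO lists. At day 9 its ranks were 732, 622 and 858 in WT and 3807, 3303 and 2710 in DKO. Groups did not overlap at days 0, 3 and 9, while at day 6 they did, with 5731, 2014 and 4825 in WT and 3740, 5565 and 8164 in DKO. The mean log2 difference in rank over the 4 days was 1.74 (adjusted p = 0.0188), from 2.31 at day 0 to 0.54 at day 6. Thus the kb under peaks of Col1a1 at days 0 and 9 overlapped between genotypes while the ranks of its strongest peak did not.

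Col6a2 ranks were 3348, 3879 and 3843 in WT and 17966, 8968 and 8348 in DKO at day 0, and 1714, 1167 and 1115 and 925, 2129 and 1131 at day 9. The genotypes were apart at days 0 and 3 and intermixed at day 9, and the mean log2 difference over the 4 days was 1.08 (adjusted p = 0.0475). The Col6a2 call was lost when WT day 3 replicate 3 was left out (adjusted p = 0.0615) and when DKO day 6 replicate 3 was (adjusted p = 0.0620), and the Col1a1 call was kept in both cases. Leaving out the libraries of any 1 replicate number left neither call, with adjusted p between 0.182 and 0.248 for Col1a1 and between 0.211 and 0.314 for Col6a2. Col1a2 had a mean log2 difference in rank of 0.69 and Col24a1 of 0.55, with adjusted p = 0.187 and 0.105. Col6a1, next to Col6a2 on the chromosome, had one of 0.15 with adjusted p = 0.870.

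**Figure D5:**
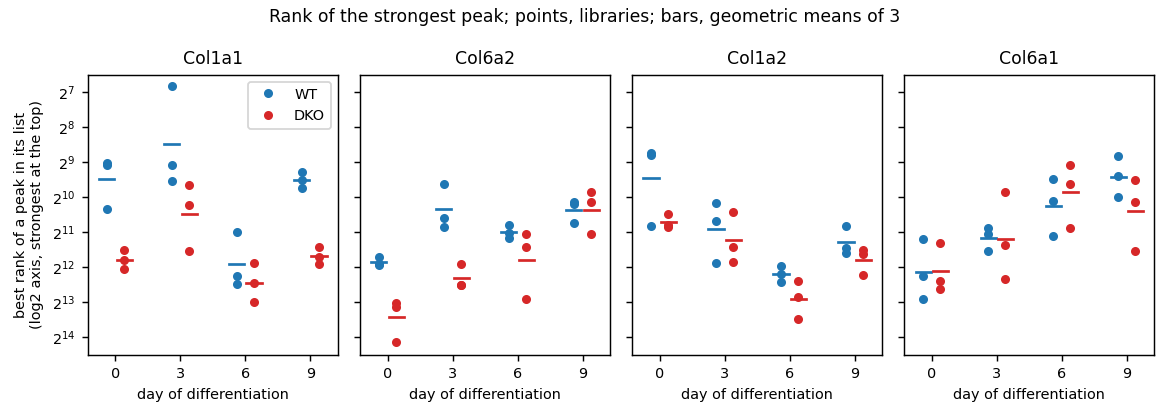
Rank of the strongest peak within its list (vertical axis, log2 scale, strongest at the top) against the day for Col1a1, Col6a2, Col1a2 and Col6a1, with 1 point per library and bars at the geometric mean of 3, WT in blue and DKO in red. All 3 DKO points of Col1a1 lie under all 3 WT points at days 0, 3 and 9.

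Genes that make and read collagen moved alongside the collagen genes at day 6. Of 30 genes of collagen biosynthesis and processing, such as the prolyl hydroxylases that stabilise the triple helix and the lysyl oxidases that crosslink fibrils, all were tested, 23 were lower in DKO and none higher, with a median log2 difference of -0.85. Of 9 tested collagen receptors, 8 were lower and none higher, with a median of -1.12. Both are to be set against the 39.6% of all genes that were lower. By the smallest p over the 4 days, the members named were Bmp1 and Adamts14, which trim procollagen, and the receptors Mrc2 and Itga10. Bmp1 went from 10.9, 12.0 and 13.5 kb in WT to 3.40, 3.89 and 2.71 kb in DKO at day 6, with a log2 difference of -1.73 ± 0.26 (SE), adjusted p = 0.000110. Adamts14 had a log2 difference of -1.76 ± 0.35 (SE), adjusted p = 0.000912. Mrc2, which takes up collagen for breakdown, had a log2 difference of -1.13 ± 0.23 (SE), adjusted p = 0.00122, and Itga10, a collagen-binding integrin subunit, had a log2 difference of -1.12 ± 0.27 (SE), adjusted p = 0.00340. After scaling by covered length, 14 of the 30 biosynthesis genes were lower and 4 higher, and 5 of the 9 receptors lower and 1 higher. With this scaling 14.4% of all genes were lower and 33.4% higher. None of these genes passed the permutation test over the 4 days, with adjusted p between 0.308 and 1.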

How the data were processed

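The files were 24 narrowPeak lists of H3K27ac ChIP-seq, 1 per library, in 8 groups of 3. Peaks were called by the authors in each library separately. The submitters' processing notes name bcl2fastq 2.17, cutadapt 1.18, BWA 07.17, MACS2 2.1.1.20160309 and the build mm10. In the deposited lists column 9 is the −log10 q-value and column 7 the fold enrichment. The 16 input samples were not used here, and read counts, which a count-based test would need, were not analysed here.

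Peaks were placed on GENCODE M21 spans of protein-coding genes, from 5 kb upstream of the start to the end. For each gene and library the kb under peaks and the best rank by column 9 were taken. Gene coordinates in the text are those of mm10 without the upstream stretch. Genes with a peak in at least 3 libraries were tested with limma 3.58.1 (R 4.3.3) on log2(kb + 0.5), all 8 groups in 1 fit, an adjusted p under 0.05 counting as a call. This scale understates the change of genes with little sequence under peaks. Over the 4 days, genotype was permuted within days, and the smallest p this allows is 1.25e-05. Within 1 day 3 libraries against 3 allow no exact p under 0.1, so days were tested with limma. The fits were also run on simulated data, in which each gene's deviations were shuffled separately over the 24 libraries. Such data lack shifts shared by a whole list, so they do not check the fits under such shifts.

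The members and gene lists were chosen with earlier results of these data known. Named with values are 12 genes fixed by symbol, the 10 with the smallest p over the 4 days, the 5 with the largest log2 difference in each direction between days 0 and 9 in WT, and 2 genes of each other list. Other collagen genes named were chosen after their values were seen. Alternatives were a −log10 q of at least 5, the 20000 strongest peaks of each list, windows of 250 bp either side of summits, no upstream stretch, scaling by covered length, all genes with a peak in at least 1 library, pseudocounts of 0.1 and 1 kb, a replicate block, limma in place of the permutation, and leaving out replicates or libraries. Leaving out DKO day 6 replicate 3 was chosen after seeing the data.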

Additional observations from a re-analysis of the deposited data

Results flagged for a closer look

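The genotype difference in kb under peaks differed between the 4 days at 19 collagen genes, by limma's F test of the genotype by day terms with Benjamini-Hochberg adjustment over 15204 genes, which 36.0% of all genes passed. Among fibrillar genes the adjusted p was 0.00200 for Col1a1, 0.0142 for Col1a2, 0.0317 for Col3a1, 0.0309 for Col5a1, 0.0220 for Col5a3, 0.00716 for Col24a1 and 0.00747 for Col27a1. For the basement membrane genes it was 0.0387 for Col4a1 and 0.0221 for Col4a2, which share part of their spans, 0.0263 for Col15a1 and 0.0498 for Col18a1. In the collagen VI class it was 0.0255 for Col6a1, 0.0293 for Col6a3 and 0.00381 for Col28a1. Among FACIT genes it was 0.0234 for Col9a2, 0.0439 for Col12a1, 0.0362 for Col14a1 and 0.00285 for Col16a1, and for the network collagen Col8a1 it was 0.00475. In 18 of these genes DKO was lower than WT at day 6, a direction that scaling by covered length turned for Col4a1, Col4a2, Col6a1, Col6a3, Col15a1 and Col18a1. Without DKO day 6 replicate 3 the test called 11 genes. The exception is Col9a2, which had no peak at day 6 in either genotype and was lower in DKO at day 0.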

How the results depend on the processing

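Counts of called collagen genes moved with the settings as follows. At day 6 (25 genes, 39.6% of all genes lower) the count was 3 of 21 tested with the 20000 strongest peaks (4.58% of all genes). It was 16 with summit windows (15.7%), 14 without DKO day 6 replicate 3 (16.6%) and 28 without DKO day 0 replicate 2 (51.3%). It ran from 7 without the libraries numbered 3 (5.87%) to 27 without those numbered 2 (44.6%). At day 0 (2 genes) it was 1 with a −log10 q of at least 5, with summit windows and with a pseudocount of 0.1 kb, 5 after scaling by covered length, 0 without DKO day 0 replicate 2 and 0 to 0 without 1 replicate number. At day 3 (0 genes) it was 6 after scaling (3.16% of all genes lower) and 6 without WT day 3 replicate 3 (3.57%). At day 9 (0 genes) it was 5 after scaling (0.631%). The day dependence (19 genes, 36.0% of all genes) held at 3 genes with the 20000 strongest peaks, 3 with summit windows and 11 after scaling. It held at 11 without DKO day 6 replicate 3 (18.7%). It held at 0 without the libraries numbered 3 (0.334%) and at up to 9 without those of another number. Between days 0 and 9 in WT (12 genes, 8.79% of all genes lower and 13.7% higher) the count was 6 with summit windows (8.01% and 8.75%). It ran from 7 without the libraries numbered 1 (5.30% and 8.34%) to 11 without those numbered 2 (7.58% and 10.6%). Without DKO day 0 replicate 2 it was 15 (11.1% and 17.6%). In DKO (14 genes, 14.0% and 15.4%) it was 6 of 21 tested with the 20000 strongest peaks (10.9% and 6.94%). It ran from 8 without the libraries numbered 3 (10.1% and 10.5%) to 12 without those numbered 2 (8.11% and 20.2%). Without WT day 3 replicate 3 it was 15 (14.8% and 16.2%). Over the 4 days in kb (0 genes, 0.125% of all genes lower and 0.0263% higher) it was 2 with summit windows and 1 without the upstream stretch. It was 13 after scaling (5.69% and 9.19%) and 12 with limma (5.20% and 1.13%). It was 5 without DKO day 0 replicate 2 (1.30% and 0.0659%) and 1 without WT day 3 replicate 3 (0.230% and 0.0263%). In best rank (2 genes) it was 1 with a −log10 q of at least 5, with the 20000 strongest peaks, without WT day 3 replicate 3 and without DKO day 6 replicate 3, and 0 without 1 replicate number, where the smallest adjusted p for any gene in kb was 0.338. The shares of all genes moved with the settings too, and a count with no share beside it says nothing particular to collagen genes. The cause was not tested.

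Scaling by covered length turned the log2 difference at day 6 to 0.052 for Col15a1, 0.0090 for Col18a1, 0.068 for Col4a1, 0.065 for Col4a2, 0.074 for Col6a1, 0.43 for Col6a2 and 0.12 for Col6a3. The 20000 strongest peaks turned it to 0.24 for Col24a1 and 0.36 for Col6a1, and leaving out the upstream stretch turned the rank difference of Col1a2 to -0.026. Among the values of single named genes 599 kept their direction and call under an alternative, 78 lost a call, 21 gained one and 10 reversed.

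The labels do not say whether libraries of the same replicate number are paired. Same-numbered libraries deviated together with a correlation over 0.1 in 4 of 12 pairs of genotypes and days (-0.177 to 0.264). With 3 libraries a group these values cannot decide it. With a replicate block the day 6 count was 27, against 44.2% of all genes. The day dependence count was then 24, with no share of all genes beside it, so it says nothing particular to collagen genes. Over the 4 days the replicate block left 0 calls in kb and 0 in best rank (adjusted p = 0.104 for Col1a1 and 0.151 for Col6a2). It allows 4096 relabellings, and the smallest adjusted p of any gene in kb was then 0.270, so that a lost call there says little. Read depth is unknown, so a list with few peaks cannot be told apart from a shallow library.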
